A study of Mus musculus with 5 samples.

Results

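The 8 genes described here are markers and transcription factors of the primed epiblast: the growth factor genes Fgf5 and Fgf15 and the transcription factor genes Otx2, Pou3f1, Foxd3, Zic2, Zic5 and Grhl2. They were chosen by symbol among 19938 named genes, and 9 probe sets carried their symbols, 2 of them Zic5. For Zic5 the probe set of the higher mean is used. RNA was measured on 5 microarrays of mouse embryonic stem (ES) cells in which, in both groups, a tetO promoter lets doxycycline switch on a Satb1 transgene. The +DOX group (3 arrays) had doxycycline for 24 h, and the no DOX group (2 arrays), which the labels call control, had none. Cells of both groups were harvested 48 h after passaging. SATB1 is a chromatin organiser that favours AT-rich DNA. DOX-treated cells without the transgene were not analysed here, so an effect of the drug cannot be told apart from one of Satb1. The labels do not say whether arrays came from separate cultures or clones, so the spread between arrays may be technical.

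Mouse ES cells kept with LIF resemble the naive epiblast of the blastocyst. As the embryo implants, the epiblast passes through a formative to a primed state, in which naive factors are shut off and Fgf5, Otx2 and Pou3f1 come on while Pou5f1 and Sox2 stay on. Epiblast-like cells made from ES cells pass through the same change, and these genes are widely used to mark it. The comparison of +DOX with no DOX cells asks whether they differ after Satb1 induction.

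None of the 8 genes passed the test in +DOX against no DOX cells. Zic5 and Zic2, which encode zinc finger factors, had the most negative log2 changes (-0.46 and -0.33). A second Zic5 probe set had 0.03, and much of the difference in both genes came from 1 no DOX array. With the chosen Zic5 probe set, Otx2 was the only one of the 8 with a higher mean, by 0.13. Pou3f1 and Foxd3 had 1 identical value on all 5 arrays.

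The start regions of Otx2 and Zic5 are shown as those of the only gene with a higher mean and of the gene with the most negative change. Both descriptions hold with the chosen Zic5 probe set and not with the other one. The Zic5 change was seen with 1 of its 2 probe sets, and the link of that probe set to this locus is in doubt. Each stretch is the 250 bases before an annotated start, from RefSeq on build GRCm38.p6, 5′ to 3′ on the gene's strand, with its longest run of A and T in capitals. For Otx2, which has 4 annotated starts in the table, the most upstream one is shown.
Otx2, minus strand, chr14:48667645-48667894: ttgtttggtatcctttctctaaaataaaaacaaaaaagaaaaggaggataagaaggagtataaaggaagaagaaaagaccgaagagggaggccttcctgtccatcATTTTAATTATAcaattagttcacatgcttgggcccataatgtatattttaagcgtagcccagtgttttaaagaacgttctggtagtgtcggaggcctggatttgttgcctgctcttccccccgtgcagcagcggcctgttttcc
Zic5, minus strand, chr14:122465659-122465908: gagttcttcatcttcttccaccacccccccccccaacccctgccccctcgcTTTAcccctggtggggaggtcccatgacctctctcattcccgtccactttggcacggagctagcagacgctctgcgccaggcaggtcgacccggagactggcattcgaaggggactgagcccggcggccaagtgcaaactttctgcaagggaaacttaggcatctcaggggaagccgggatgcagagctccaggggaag
The Otx2 stretch was 42.0% G and C with a longest A and T run of 12 bases, and 13.4% of 32841 such stretches had a run at least as long. Before the other 3 Otx2 starts, G and C made up 48.4% to 53.6%, and the longest runs were 9, 13 and 17 bases. The Zic5 stretch was 62.4% G and C with a longest run of 4 bases, which 93.7% of stretches matched or exceeded. Fgf5, at 70.8%, and Foxd3, at 65.6%, also lay above the median of 52.4% G and C. The table held stretches for 4 of the 8 genes. These are descriptions of letters, and binding of SATB1 was not measured here.

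Satb1 checked the labels. Its log2 level was 8.61, 8.79 and 8.68 on the +DOX arrays, against 4.95 and 5.34 on the no DOX arrays, so the groups did not overlap. The change was 3.55 (95% interval 3.23 to 3.86), an 11.7-fold higher level. Over all genes, 2 were higher and 1 lower at an adjusted p under 0.05 (limma, Benjamini-Hochberg), which is 0.015% of 19938. None of the 8 was among them, and the adjusted p of Satb1 itself was 0.229. Many deposited values were exactly tied: 15.1% of genes had 1 value on all arrays and only 9.03% had 5 distinct values. Ties make a gene's own spread too small. Intervals given here are therefore 95% intervals with the spread drawn from the 1800 genes with 5 distinct values, which gave wider intervals than the fit over all genes for Fgf5, Pou3f1 and Foxd3 and narrower ones for the other five. Standard errors are from the fit over all genes. In the setting of the 1800 genes 0 of the 8 passed and Satb1 alone did (adjusted p = 0.0038, limma; 0.00502% of genes). Values are log2 RMA summaries without detection calls, so a level cannot be called above or below background.

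At an unadjusted p under 0.05, 1 of the 8, Zic5, was lower, against 1.07% of all genes, and 0 were higher, against 0.481%. A log2 change of -0.3 or lower was found in 2 of the 8 and in 0.461% of all genes. With the other Zic5 probe set these counts were 0 and 1 of the 8. The median log2 change of the 8 was -0.07, beside a median of 0 over all genes. By mean, 1 was higher, 5 were lower and 2 were the same, beside 7901, 9026 and 3011 of all 19938 genes. Zic5 counts as lower here, but its other probe set had a higher mean, by 0.03. Of the 6 genes with any difference between arrays, 4 (Zic2, Zic5, Fgf15 and Grhl2) were highest on no DOX array 2 alone, where 19.8% of the 16927 genes with any difference had their single highest value. The other Zic5 probe set was highest on +DOX array 3. The median of the 8 without no DOX array 2 was -0.02. In bulk RNA, fewer cells of a type and less RNA per cell cannot be told apart.

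**Figure D1:**
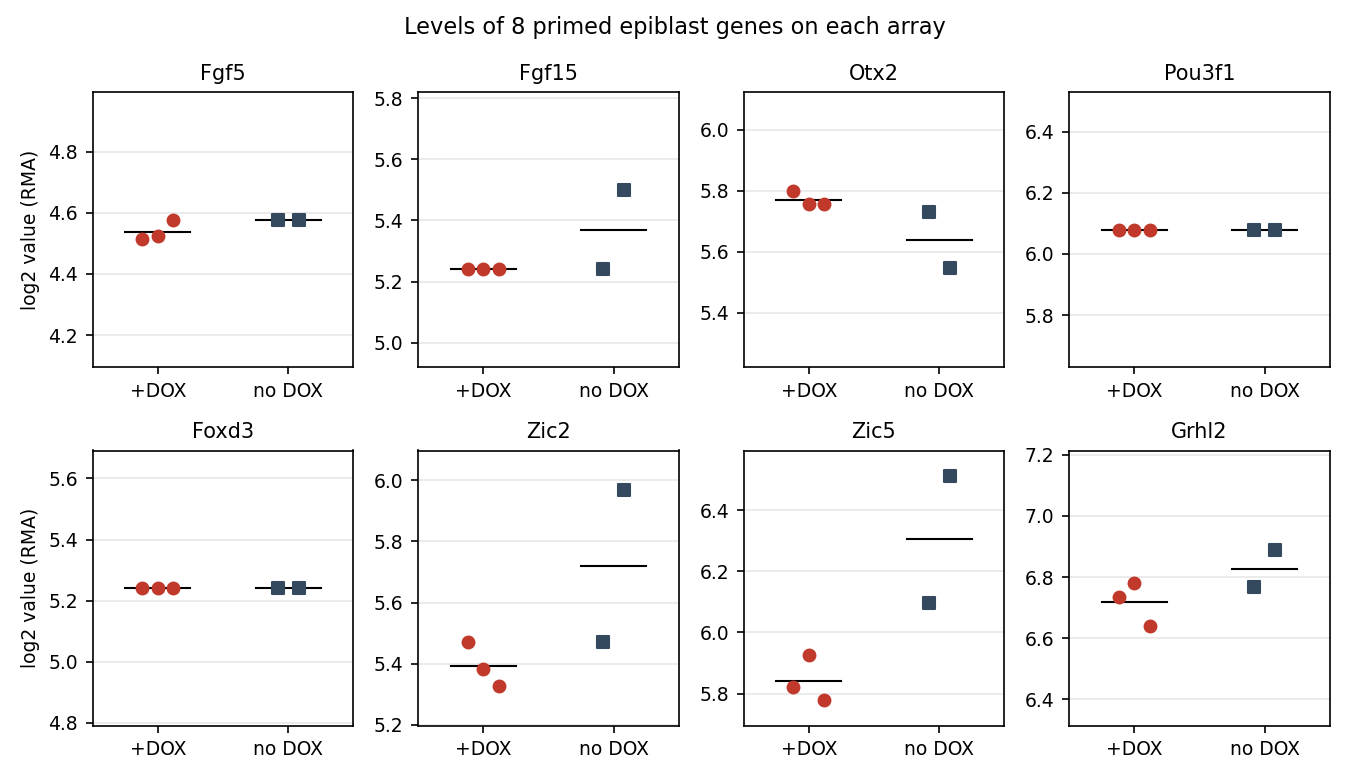
Log2 RMA value of each of the 8 genes (vertical axis, each panel 0.9 log2 units tall) on the 3 +DOX arrays (circles) and 2 no DOX arrays (squares), with group means as bars. Zic5 is the only gene with all +DOX points below both no DOX points, Otx2 the only one with all above, and Pou3f1 and Foxd3 are flat.

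Fgf5, a secreted fibroblast growth factor, is the classic marker of primed epiblast and is low in naive ES cells. Its log2 level was 4.51, 4.53 and 4.58 on the +DOX arrays, against 4.57 on both no DOX arrays. The groups overlapped, since the highest value was that of +DOX array 3. The log2 change was -0.04 (interval -0.18 to 0.11, adjusted p = 0.770, limma), so an increase of more than 0.11 lay outside the interval. With the mean of the feeder genes as a covariate it was -0.17 (adjusted p = 0.262, limma). That mean was higher on every +DOX array, so this fit can hardly tell feeders from treatment.

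Fgf15, a growth factor gene that marks primed cells and early neural tissue, had a log2 level of 5.24 on all 3 +DOX arrays, against 5.24 and 5.50 on the no DOX arrays. Only no DOX array 2 stood apart. The log2 change was -0.13 (interval -0.35 to 0.09, adjusted p = 0.770, limma). Without no DOX array 2 it was exactly 0. Without no DOX array 1 it was -0.26 and passed, in a fit with a lone no DOX array assumed to vary like the +DOX arrays. The 3 +DOX values of Fgf15 were identical, so that fit held no spread of the gene's own, and its pass cannot be read as a change.

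Otx2 encodes a homeodomain factor that, with OCT4, opens the enhancers of the formative and primed state. Its log2 level was 5.80, 5.76 and 5.76 on the +DOX arrays, against 5.73 and 5.55 on the no DOX arrays. Every +DOX array lay above both no DOX arrays, as in 1.65% of all genes, but the gap to no DOX array 1 was small. The no DOX arrays differed from each other by 0.18, more than the difference between the group means. The log2 change was 0.13 ± 0.07 (standard error), or 1.10-fold (interval -0.05 to 0.31, adjusted p = 0.770, limma). It was 0.04 without no DOX array 2 and 0.22 without no DOX array 1, and passed in neither fit.

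Pou3f1, the gene of the POU factor OCT6, is induced early as cells leave the naive state. Its log2 level was 6.08 on all 5 arrays, to the last deposited digit. Foxd3 encodes a forkhead factor needed in the epiblast and later in neural crest. Its level was 5.24 on all 5 arrays. Unrelated probe sets shared these values: between 109 and 118 of the 35557 probe sets had the Foxd3 value on a given array, and between 26 and 35 had the Pou3f1 value. Fgf15 had the Foxd3 value on 4 arrays, and Fgf8 had it on all 5. The change was 0 for both Pou3f1 and Foxd3, with an interval of -0.13 to 0.13. Neither gene had any spread of its own, so this interval was set by other genes and does not bound the change of Pou3f1 or Foxd3. Some values of the other genes were shared too. On no DOX array 2, 20 probe sets had the Zic2 value, 11 the Grhl2 value and 5 the Zic5 value. The Otx2 value was held by 24 on +DOX array 2 and 27 on +DOX array 3. Ties of this kind run through the table, and an exact 0 does not show that a transcript was unaltered.

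Zic2 and Zic5 are neighbouring genes on mouse chromosome 14 and encode zinc finger factors of the epiblast and neural plate. Zic2 had a log2 level of 5.47, 5.38 and 5.33 on the +DOX arrays, against 5.47 and 5.97 on the no DOX arrays. The groups touched, since +DOX array 1 and no DOX array 1 had the same value. The log2 change was -0.33 ± 0.18 (standard error), or 1.25-fold lower (interval -0.69 to 0.04, adjusted p = 0.770, limma). The interval from the fit that gave the standard error was -0.86 to 0.21. On no DOX array 2, 20 probe sets had exactly the Zic2 value, and Ngfr had it on all 5 arrays. The value that set Zic2 apart there was thus a tied one. The no DOX arrays differed by 0.50, and without no DOX array 2 the change was -0.08. Without no DOX array 1 it was -0.58, and it passed in neither fit.

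Zic5, by the probe set with the higher mean (10376241), had a log2 level of 5.82, 5.93 and 5.78 on the +DOX arrays, against 6.10 and 6.51 on the no DOX arrays. All +DOX arrays lay below both no DOX arrays, as in 3.08% of all genes. The log2 change was -0.46 ± 0.15 (standard error), or 1.38-fold lower (interval -0.78 to -0.14). With the gene's own spread in the fit over all genes, which gave the standard error, the interval was -0.91 to -0.01. The limma p was 0.047 before adjustment over all genes and 0.770 after it. Without no DOX array 2 the change was -0.25, and without no DOX array 1 it was -0.67.

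The other Zic5 probe set (10422504) did not show this difference. Its log2 level was 5.68, 5.61 and 5.88 on the +DOX arrays, against 5.68 and 5.71 on the no DOX arrays. The groups overlapped and +DOX array 3 was the highest. The change was 0.03 (interval -0.20 to 0.26, adjusted p = 1, limma). Probe sets of this array are numbered mostly in the order of the genome, since 96.6% of 21698 named probe sets had most of the 20 nearest named probe sets on their own chromosome. Probe set 10376241 had 0 of 20 on chromosome 14, where Zic5 lies, and 19 on chromosome 11. Probe set 10422504 had 14 of 20 on chromosome 14, and Zic2's probe set had 20. No neighbour on the gene's own chromosome was found for 2.64% of named probe sets. Which transcript 10376241 measures was not tested, and its link to Zic5 rests on the array's annotation alone.

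**Figure D2:**
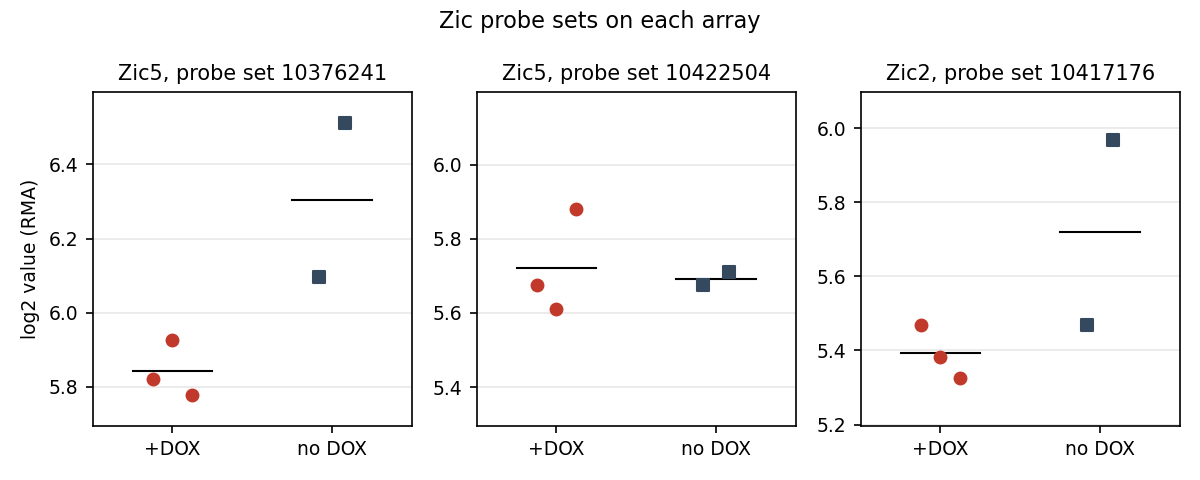
Log2 RMA value (vertical axis, each panel 0.9 log2 units tall) of both Zic5 probe sets and of Zic2 on +DOX arrays (circles) and no DOX arrays (squares), with group means as bars. Only probe set 10376241 separates the groups, and the upper no DOX point in it and in Zic2 is no DOX array 2.

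Grhl2, a grainyhead factor, takes over epithelial enhancers as cells enter the formative state. Its log2 level was 6.74, 6.78 and 6.64 on the +DOX arrays, against 6.77 and 6.89 on the no DOX arrays. The groups overlapped, with +DOX array 2 above no DOX array 1. The log2 change was -0.11 ± 0.06 (standard error; interval -0.29 to 0.07, adjusted p = 0.770, limma). It was -0.17 without no DOX array 1 and -0.05 without no DOX array 2. With the mean of the feeder genes as a covariate it turned to 0.18, and it passed in none of these fits. The feeder mean separated the groups, so the turn cannot be read as a correction for feeders.

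**Figure D3:**
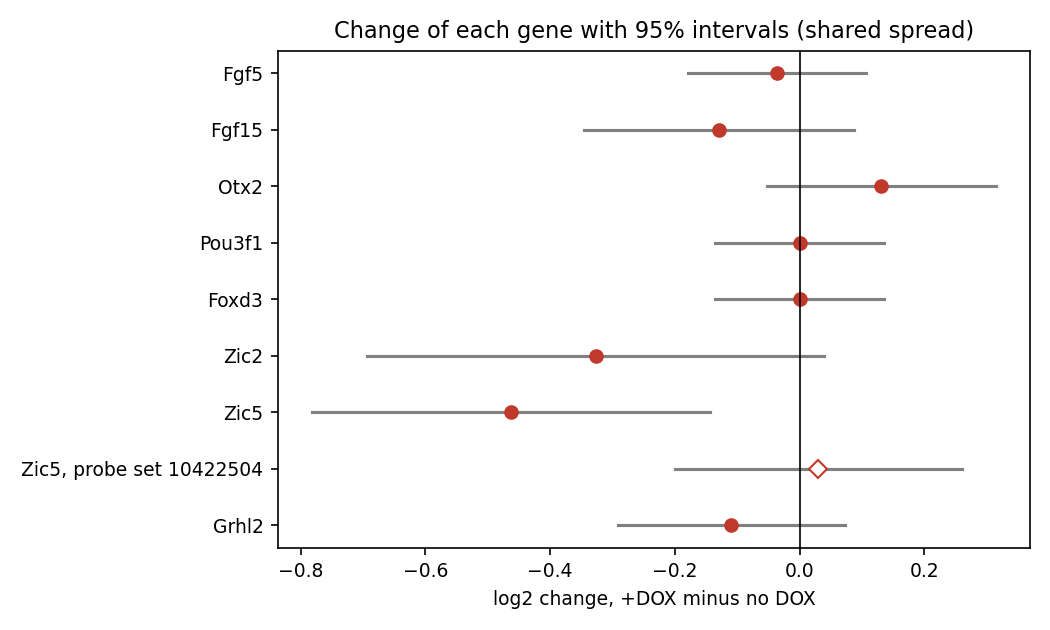
Log2 change of each gene, +DOX minus no DOX (horizontal axis), with 95% intervals from the spread of genes with 5 distinct values; the open diamond is the second Zic5 probe set. Only the interval of Zic5, by probe set 10376241, leaves out 0 (-0.78 to -0.14), and it did not pass over all genes. Pou3f1 and Foxd3 had no spread of their own, so their intervals were set by other genes.

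Other genes of the primed and formative epiblast were followed through 20 more markers, of which 19 were measured. None passed. By mean, 8 were higher and 11 lower, with a median log2 change of -0.03. Every +DOX array lay below both no DOX arrays in 4 genes (Pim2, Foxp1, Lefty1 and Lef1) and above them in 1, the DNA methyltransferase gene Dnmt3a, at 0.10. The shares of all genes are 3.08% below and 1.65% above. Pim2, a kinase gene, had a log2 level of 6.25, 6.22 and 6.30 on the +DOX arrays, against 6.53 and 6.80 on the no DOX arrays. Its change was -0.40 ± 0.10 (standard error, adjusted p = 0.770, limma). Foxp1, a forkhead factor gene, had -0.21, the Nodal antagonist gene Lefty1 had -0.20, and Lef1, a nuclear effector of WNT signalling, had -0.13. Dnmt3b, a de novo methyltransferase gene that goes up in primed cells, had 0.04, and Sox3 had 0.02.

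Closest relatives of the 8 genes gave small values and none passed. Zic1 and Zic4 had log2 changes of 0.02 and 0.06. Otx1 had -0.07. Among POU class III genes, Pou3f2 had -0.06, Pou3f3 had 0.08 through +DOX array 3 alone, and Pou3f4 had -0.16 through +DOX array 1 alone. Grhl1 and Foxd4 had 1 value on all arrays, and Grhl3 had 0.05. Fgf4, the main FGF ligand of naive ES cells, had -0.01.

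FGF signalling through ERK drives the exit from the naive state. Of 16 FGF receptor and ERK target genes none passed, 9 had a higher and 5 a lower mean, and the median was 0.01. Fgfr1, the main receptor in ES cells, had 6.74 on all arrays. Dusp6, an ERK phosphatase gene and ERK target, had 0.13, and Fos had 0.07. Ier3, an immediate early gene, had -0.39, with a log2 level of 5.03, 4.75 and 4.61 on the +DOX arrays, against 5.26 and 5.13 on the no DOX arrays. Fgfr4 had -0.10.

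Epithelial genes bound or regulated by GRHL2 were described beside Grhl2 itself. Of 14, none passed, 11 had a higher and 2 a lower mean, and the median log2 change was 0.03. Over all genes, 7901 of 19938 had a higher mean. In all of the 11 except Cldn6, no DOX array 1 alone was the lowest, as in 13.7% of all genes. The split thus rests largely on 1 array. The claudin gene Cldn7 had 0.05 ± 0.03 (standard error), the splicing regulator gene Esrp1 0.05, and Epcam and Cldn3 0.02 each. In no gene of this list did the groups stand apart.

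Naive pluripotency genes, the other side of the transition, had a lower mean in 16 of 18 with a median log2 change of -0.05, and none passed. Over all genes, 9026 of 19938 had a lower mean. Every +DOX array lay below both no DOX arrays in 4 of the 18 (Tet2, Klf4, Nr5a2 and Nr0b1) and above them in 0. The shares of all genes are 3.08% below and 1.65% above. Tet2, a methylcytosine dioxygenase gene, had -0.37, Klf4 -0.35, Nr5a2 -0.27 and Nr0b1 -0.25. Among 10 core pluripotency genes the median was 0.00 (-0.0029), with none passing. By mean 8 were lower and 2 higher, and in 2 (Tdgf1 and L1td1) every +DOX array lay below both no DOX arrays. Pou5f1, the gene of OCT4 and a defining marker of the labelled ES cells, had a log2 level of 9.92, 9.93 and 9.96 on the +DOX arrays, against 9.86 and 9.93 on the no DOX arrays. Sox2, its partner, had 9.93, 9.93 and 9.90 on the +DOX arrays, against 9.88 and 9.97 on the no DOX arrays. The groups overlapped for both. Tdgf1, the Nodal co-receptor gene, had -0.21, L1td1 -0.07, the OCT4 gene Pou5f1 0.04 and Lin28a 0.01.

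**Figure D4:**
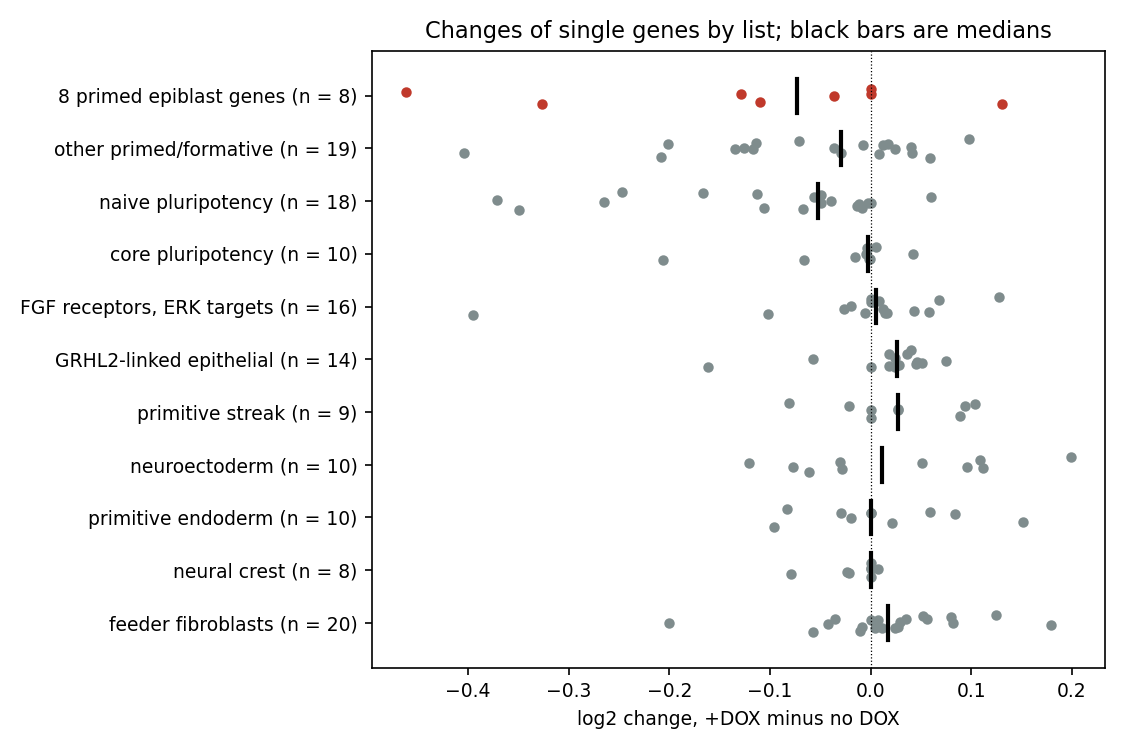
Log2 change of each gene, +DOX minus no DOX (horizontal axis), for the 8 genes and for lists of related genes (rows), with the median of each list as a black bar. The 8 genes span -0.46 to 0.13 around a median of -0.07, and the medians of the other lists lie between -0.05 and 0.03.

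Feeder cells could add RNA to these samples. The labels differ on them, since one protocol names irradiated feeders, reduced by settling, and the design text names LIF only. The mean of 20 fibroblast genes was 5.598, 5.597 and 5.605 on the +DOX arrays, against 5.582 on both no DOX arrays. Each +DOX array lay slightly above, so this mean separated the groups, and a fit with it can hardly tell feeders from treatment. Of the 20, 13 had a higher and 6 a lower mean, none passed, and the median was 0.02. Lox had -0.20, Thy1 -0.04, Fn1 -0.04 and Col3a1 0.03. The largest increase of the 20 was that of Acta2, at 0.18, and its groups overlapped. With this mean as a covariate Zic5 had -0.19, Zic2 -0.09, Fgf5 -0.17, Fgf15 -0.11, Otx2 0.16 and Grhl2 0.18, without passing.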

How the data were processed

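Per the submitters' processing notes, the authors summarised the arrays with RMA, and the deposited table holds 1 log2 value per probe set and array. Software, version, probe grouping and build: not given in the sources used here. Values ran from 0.79 to 13.1 over 35557 probe sets. The array's annotation gave 21789 probe sets 1 gene symbol and 1621 several, and 12147 were not listed. All 8 genes were found by gene identifier in the RefSeq table (GRCm38.p6). The probe set with the highest mean stood for a gene, with no filter on low values.

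Groups came from the sample titles. All 19938 genes were fitted with limma 3.58.1 (lmFit, eBayes) in R 4.3.3, with Benjamini-Hochberg adjustment and a threshold of 0.05. Ties lowered limma's prior SD to 0.0050, against 0.086 when only the 1800 genes with 5 distinct values set it. That second prior, applied to every gene, gave the 95% intervals. The fit was tested on simulated data without ties, so that test does not cover the ties in the deposited values. An exact permutation test of 3 against 2 arrays cannot go below p = 0.1 and was not used. The number of arrays limits the precision.

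Genes and lists were chosen with earlier results of these data known. Named genes were the 8, Satb1, their relatives, and per list up to 4 with the smallest p and any with a change of 0.3 or more. Dnmt3a, Dnmt3b, Sox2, Sox3, Fgf8, Fgfr1 and Acta2 were named after their values were seen. Likeness of profiles was the Euclidean distance between values centred on each gene's mean over 5 arrays, for the 2 genes with the widest range. The alternatives are listed in the closing section. Use of the second Zic5 probe set was added after seeing the data.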

Additional observations from a re-analysis of the deposited data

How the results depend on the processing

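None of the 8 genes passed in the fits described, apart from Fgf15 without no DOX array 1 (-0.26). In that fit 1 no DOX array was left and the 3 +DOX values of Fgf15 were identical. Zic5 was at 0.030 with its other probe set, in place of -0.46, and the cause was not tested. Grhl2 was at 0.18 with the feeder mean as a covariate, in place of -0.11. The feeder mean separated the groups, so that fit can hardly tell feeders from treatment. The median of the 8 genes was -0.07. It was -0.11 for the 7 above the median level of all genes and -0.33 for the 3 untied within both groups, which rest on fewer genes. It was -0.018 with the other Zic5 probe set, and leaving out single arrays gave -0.10 to -0.018. The mean of all probe sets gave Zic5 a change of -0.22.

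Against 2 higher and 1 lower genes over all, both counts were 0 for arrays centred on their medians, quantile normalization again, the feeder covariate, genes above the median level and a 1.5-fold minimum. An adjusted p under 0.01 gave 0 higher. Untied genes gave 1 higher; the wider prior gave 1 higher and 0 lower. Leaving out single arrays gave 0 to 1051 higher and 0 to 1097 lower genes. Satb1, at 3.55, passed under the wider prior and among untied genes, and in no other fit that kept both no DOX arrays. A gene that does not pass in those fits can thus still differ strongly. Leaving out single arrays gave Satb1 changes of 3.35 to 3.75. The trend and robust fit gave the same counts.

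Title numbers are not explained in the labels, and nothing showed that equal numbers pair the arrays (correlation of deviations -0.0063 and 0.0063). With the number as a replicate block, 0 genes were higher and 0 lower, Zic5 had -0.43, Zic2 -0.29 and Otx2 0.14.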

Other observations

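Markers of tissues that follow the primed epiblast were also read. None of 9 primitive streak, 10 neuroectoderm, 10 primitive endoderm or 8 neural crest genes passed, and the median log2 changes were 0.03, 0.01, 0 and 0. Of the streak genes 5 had a higher and 2 a lower mean. Eomes, a T-box factor gene of the streak, had 0.10, Evx1 had 0.09, and Mesp1 and Wnt3 had 0.03 each. In neuroectoderm 5 had a higher and 5 a lower mean, with changes from -0.12 to 0.20. Of these genes Tubb3 had -0.08, Neurog2 -0.06, and Pax3 and Six3 -0.03 each. Gata6, a factor gene of primitive endoderm, had 0.08, with every +DOX array above both no DOX arrays, and Lama1, a laminin gene of that tissue, had -0.08 with every array below, as in 1.65% and 3.08% of all genes. Ttr had 0.15 and Sox17 -0.02. Sox10, a neural crest factor gene, had -0.08, Twist1 and Pax7 had -0.02 each, Snai2 had 0.01, and Foxd3, which also marks neural crest, was flat.

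Zic5 and Zic2 had the widest ranges of the 8 over the arrays, at 0.73 and 0.64. The profiles nearest to that of Zic5 among 19938 genes were Olfr803 (Euclidean distance 0.112), Ripply1 (0.131) and Olfr936 (0.152), where a flat profile lies at 0.595. Olfr803 and Olfr936 had low levels, from 1.58 to 2.45, and Ripply1 had 4.45 to 5.11, where array medians were 5.05 to 5.07. Zic2 was the 10th nearest to Zic5, at 0.211, by probe set 10376241, whose link to Zic5 is in doubt. From the profile of the other Zic5 probe set, 10422504, Zic2 lay at 0.580, in rank 19718, and a flat profile at 0.204. Nearest to Zic2 were Zfp616 (0.0448), Meig1 (0.0770) and Ndufa4l2 (0.116), with Zic5 in rank 33 and a flat profile at 0.513. Levels were low here too, at 2.04 to 2.68 for Zfp616, 2.56 to 3.17 for Meig1 and 4.22 to 4.95 for Ndufa4l2. Likeness to genes at such levels does not show shared expression.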
